A study of Mus musculus with 2 samples.

Results

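The WD repeat and tetratricopeptide repeat (TPR) genes were examined among transcripts recovered with FMRP from mouse testis. Members were taken from the deposited gene table by symbol alone, as rows whose name begins with *Wdr* or *Ttc* and a digit, or with *Wdfy*, *Wdcp* or *Tmtc*. This gave 45 of the 4788 listed genes, of which 22 (*Wdr* and *Wdfy*) were counted as WD repeat genes and 23 (*Ttc* and *Tmtc*) as TPR genes. No *Wdcp* row was listed. RNA immunoprecipitation sequencing (RIP-seq) compares RNA that precipitates with a protein against the RNA of the lysate. Here 1 input library (wild type, adult testis, lysate before precipitation) was set against 1 FMRP RIP library (wild type, adult testis, anti-FMRP antibody), and no IgG control library was used here. The number of animals behind each library is not given in the sources used here, and with 1 library per group the differences have no replicate check and no test between conditions was possible. In the study, FMRP is an RNA-binding partner of the kinesin KIF6, and the comparison asks which testis mRNAs FMRP associates with.

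WD repeats fold into a beta-propeller, a ring of blades whose faces hold several proteins at once. TPRs are stacked pairs of helices that form a curved surface for binding peptides. Neither fold is catalytic by itself, and both occur in scaffold subunits of large assemblies. In cells with a cilium or flagellum these include intraflagellar transport (IFT) trains, axonemal dyneins and centriole proteins. FMRP binds mRNA and regulates its translation.

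Levels are given as CPM, read counts scaled to a common library total, not per length, so they were not compared between genes as molecule numbers. The CPM values were multiples of 0.01 read in libraries of 30849871 reads (input) and 36506932 reads (FMRP RIP). Each read thus equalled 0.0324 CPM for the input and 0.0274 CPM for the FMRP RIP. The members had between 27 and 8905 input reads, so none was near the floor of 3 reads (0.0972 CPM in the input). Every listed gene was one the authors had marked as higher in the FMRP RIP, so the direction of each member was fixed by the selection, and its size is a description. In whole tissue, fewer cells of a type and less RNA per cell cannot be told apart. Of 35 marker genes of testicular and neighbouring cell types, only *Sall4*, *Sycp1* and *Sycp2* were listed, which leaves the labelled tissue unchecked because genes outside the list were not analysed here.

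The highest recovery was similar in both families, and WD repeat genes had the lower median. The lower ends of both ranges were set by the selection. Enrichment is given as a log2 ratio, the FMRP RIP value over the input value with 1 CPM added to each. The 22 WD repeat genes had a median log2 ratio of 1.17 (quartiles 0.92 and 1.96, range 0.54 to 2.86). The 23 TPR genes had a median of 1.5 (quartiles 1.30 and 1.97, range 0.55 to 2.82). A log2 ratio above 1 was found for 12 of the 22 WD repeat genes (54.5%) and 18 of the 23 TPR genes (78.3%). Over all listed genes this share was 70.1%, with a median of 1.35. The 30 members above 1 made up 66.7% of the 45, which is near the share of all listed genes. A log2 ratio above 2 was found for 4 WD repeat and 6 TPR genes, 22.2% of the members, against 25.0% of all listed genes. The difference of -0.33 between the family medians (WD repeat minus TPR) was not seen at higher levels. Among members at 10 CPM or more in the input, both medians were 1.5 (16 genes each), and the median of all 2317 such listed genes was 1.54. Summed over their genes, input and FMRP RIP levels of WD repeat genes were 990.1 and 3333 CPM, a ratio of 3.37, and those of TPR genes 789.9 and 2620 CPM, a ratio of 3.32.

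**Figure D1:**
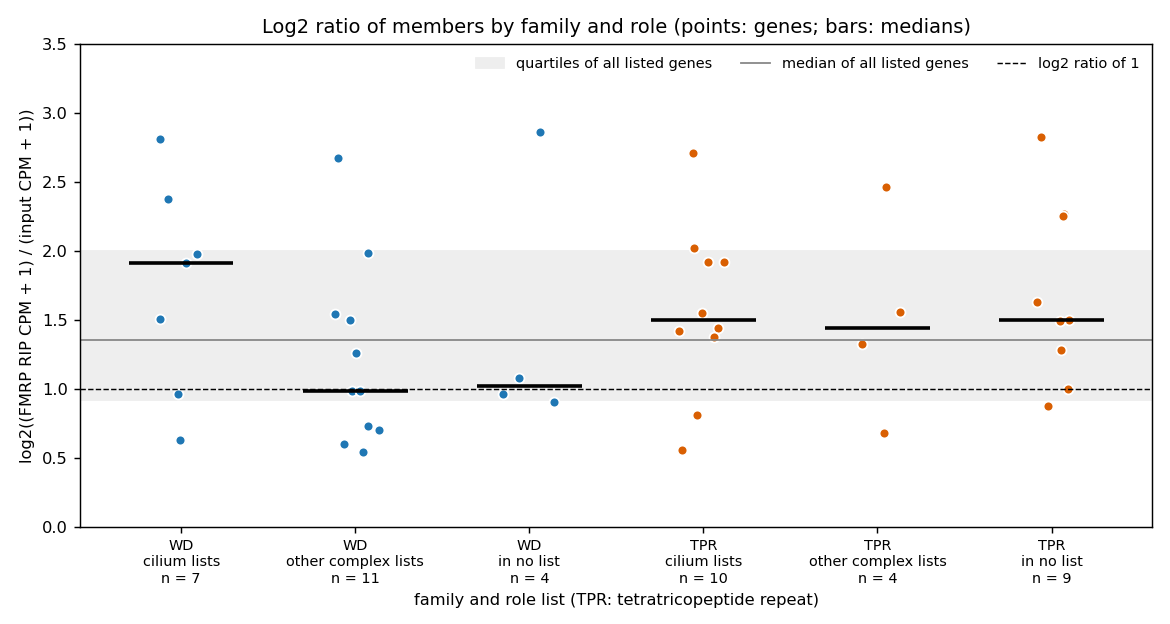
Log2 ratio (FMRP RIP over input, 1 CPM added to each) of each of the 45 members, split by family and by the kind of role list that holds the gene; black bars are medians, and the grey band and line show the quartiles (0.92 and 2.0) and median (1.35) of all listed genes. WD repeat genes in cilium lists (7 genes) have a median of 1.91, those in other complex lists (11) 0.99 and those in no list (4) 1.02. The 3 TPR groups lie between 1.44 and 1.5. The role lists were written with earlier results of these data known, so these medians are no independent result.

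The cilium and flagellum lists held 17 members, 13 of them with a log2 ratio above 1 (76.5%) and a median of 1.55, near the 70.1% and 1.35 of all listed genes. The IFT-A complex, which carries cargo back from the ciliary tip, has WD repeat and TPR subunits. *Ttc21a* (GRCm38 chr9:119937606-119967793), the TPR subunit associated with sperm flagella, had 127 CPM in the input against 519 CPM with FMRP, a ratio of 4.08 (95% counting interval 3.94 to 4.22). Its paralogue *Ttc21b*, which encodes the ciliary subunit IFT139, had 48.2 and 143 CPM, a ratio of 2.97 (2.81 to 3.15). *Wdr19*, encoding the IFT-A core subunit IFT144, was lower still in ratio, with 41.4 and 81.4 CPM and a ratio of 1.97 (1.84 to 2.10). The intervals of these 3 genes did not overlap, so the steps from *Ttc21a* to *Ttc21b* to *Wdr19* were larger than counting error. *Wdr60*, an intermediate chain of the dynein-2 motor that moves IFT trains back from the ciliary tip, had 11.8 CPM in the input against 65.4 CPM with FMRP (ratio 5.54, interval 4.96 to 6.21). *Ttc8*, a subunit of the BBSome coat that sorts ciliary membrane proteins, had the lowest log2 ratio of the TPR genes (0.55), with 3.08 and 4.99 CPM. The ratio of *Ttc8* was 1.62 (1.26 to 2.10).

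The dynein arm list held 5 members, *Wdr63* with the third highest log2 ratio of all members. *Wdr63* (chr3:146040526-146108130) encodes an intermediate chain of the inner dynein arms, which shape the bend of the flagellum. It had 23.0 CPM in the input against 167 CPM with FMRP, a ratio of 7.27 (6.73 to 7.87) and rank 429 of the 4788 listed genes. *Wdr78*, a WD repeat intermediate chain linked to inner arm assembly, had 17.4 and 68.1 CPM, a ratio of 3.92 (3.57 to 4.31). *Ttc25*, a component of the outer dynein arm docking complex, had 57.9 and 222 CPM and a similar ratio of 3.84 (3.65 to 4.04). The ratio of *Wdr63* was thus 1.86 times that of *Wdr78*, with intervals that did not overlap. Lower ratios were found for *Ttc29*, required for a normal sperm flagellum, with 82.5 and 222 CPM (ratio 2.69, 2.58 to 2.82). *Ttc12*, a cytoplasmic factor of dynein arm assembly, had 31.8 and 84.3 CPM (ratio 2.65, 2.46 to 2.85), and its interval overlapped that of *Ttc29*.

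Centriole and other flagellum members covered nearly the whole range. *Wdr62* (chr7:30240138-30280419), a spindle pole and centrosome protein needed for mitotic progression, had the highest CPM of the members, a value not corrected for length. It had 289 CPM in the input against 1139 CPM with FMRP, a ratio of 3.95 (3.86 to 4.04) from 8905 and 41587 reads. It held 16.2% of the members' summed input CPM and 19.1% of their FMRP RIP CPM. *Wdr90*, a centriole wall protein, had 5.67 and 9.29 CPM and a ratio of only 1.64 (1.36 to 1.98). The intervals of these centriole genes were far apart. *Ttc6* (chr12:57564113-57737928) had 24.7 and 168 CPM (ratio 6.78, 6.29 to 7.32), and *Ttc16* had 42.3 and 163 CPM (ratio 3.85, 3.62 to 4.09). *Wdr11*, which acts in vesicle tethering and ciliogenesis, had 38.5 and 111 CPM (ratio 2.89, 2.71 to 3.09). Both TTC23 paralogues were listed, *Ttc23l* with 36.3 and 100.4 CPM (ratio 2.77, 2.59 to 2.96) and *Ttc23* with 35.2 and 62.2 CPM (ratio 1.77, 1.65 to 1.90). *Ttc23* and *Ttc23l* were thus nearly level in the input and differed in the FMRP RIP.

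**Figure D2:**
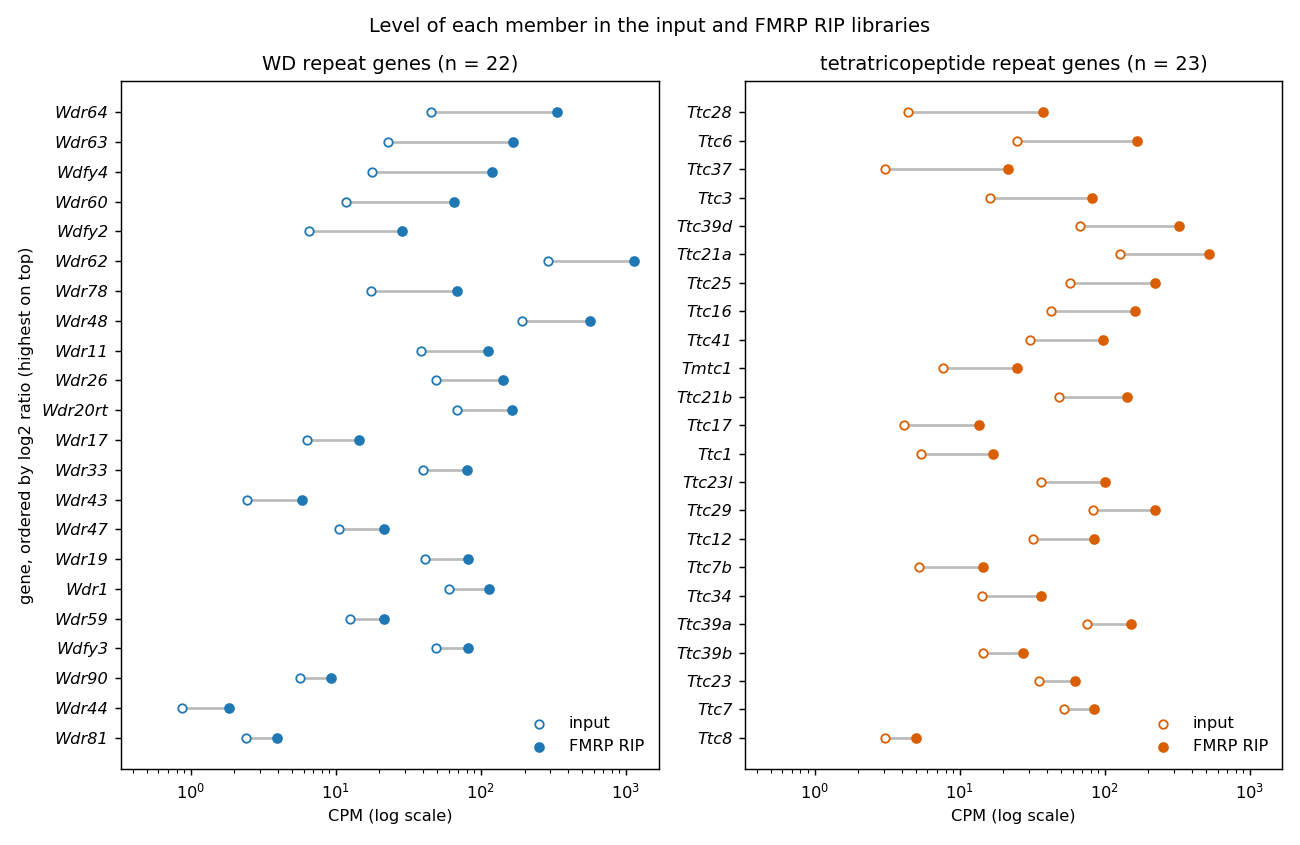
CPM of each member in the input (open circles) and the FMRP RIP (filled circles) on a log axis, 1 library each, with genes ordered by log2 ratio within each family. *Wdr62* reaches 1139 CPM in the FMRP RIP, *Wdr44* is the lowest member with 0.88 and 1.84 CPM, and the lines tend to lengthen from *Wdr81* and *Ttc8* at the bottom to *Wdr64* and *Ttc28* at the top.

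The lists of other complexes held 15 members with a median log2 ratio of 1.26, and 8 of them were above 1 (53.3%), against a median of 1.35 and a share of 70.1% over all listed genes. This count depends on the pseudocount, since *Wdr33*, *Wdr43* and *Wdr44* were also above 1 without it. The share over all listed genes was then 81.2%, and the medians were 1.27 for these members and 1.61 for all listed genes. Within the endosome and autophagy list the 5 members split widely. *Wdfy4* (chr14:32959547-33185508), a BEACH domain protein known from antigen cross-presentation in dendritic cells, had 17.8 and 119 CPM (ratio 6.68, 6.11 to 7.31). *Wdfy2*, an endosomal FYVE domain protein, had 6.52 and 28.7 CPM (ratio 4.41, 3.79 to 5.15). *Wdfy3*, the large adaptor of selective autophagy, had 49.3 and 80.9 CPM (ratio 1.64, 1.54 to 1.75). The *Wdfy* genes therefore differed from each other beyond counting error, with *Wdfy4* 4.07 times above *Wdfy3* in ratio. *Wdr81*, a regulator of endosomal phosphoinositides, had the lowest log2 ratio of all members (0.54), from 2.40 and 3.94 CPM (ratio 1.64, 1.23 to 2.21). Without the pseudocount *Ttc7* was the lowest, with a ratio of 1.61 (1.51 to 1.71), an interval within that of *Wdr81*. *Wdr44*, a Rab11 effector and the only listed X-linked member, had 27 input reads, and its ratio of 2.10 had the wide interval of 1.32 to 3.41.

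Among cofactors of ubiquitin enzymes, *Wdr48* and *Wdr26* were close to each other, and the interval of *Wdr20rt* lay below both of theirs. *Wdr48*, which activates the deubiquitinases USP1, USP12 and USP46, had the second highest member CPM, with 193 CPM in the input against 562 CPM with FMRP (ratio 2.92, 2.84 to 3.01). *Wdr26*, a subunit of the GID/CTLH ubiquitin ligase, had 49.3 and 141 CPM (ratio 2.86, 2.70 to 3.03), and the interval overlapped that of *Wdr48*. *Wdr20rt*, a retrogene of the cofactor gene *Wdr20*, had 68.0 and 164 CPM (ratio 2.41, 2.30 to 2.54). The value of *Wdr20rt* is uncertain because reads may be shared with its parent gene, and its reads were not whole numbers.

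Members that act on RNA, lipids, nutrient sensing and glycosylation ranged widely. *Ttc37*, the TPR scaffold of the SKI complex that feeds RNA to the exosome, had 3.08 and 21.5 CPM, a ratio of 6.98 (5.64 to 8.73). *Wdr33*, the polyadenylation signal reader of CPSF, had 39.8 and 79.8 CPM (ratio 2.0, 1.87 to 2.14). *Wdr43*, a factor of the small-subunit processome, had 2.46 and 5.83 CPM (ratio 2.37, 1.81 to 3.12). The interval of *Ttc37* lay above those of *Wdr33* and *Wdr43*. *Ttc7* and *Ttc7b*, alternative scaffolds of the phosphatidylinositol 4-kinase PI4KA, differed, with 52.4 and 84.2 CPM for *Ttc7* (ratio 1.61, 1.51 to 1.71) and 5.22 and 14.6 CPM for *Ttc7b* (ratio 2.79, 2.34 to 3.35). *Wdr59*, a subunit of the amino acid sensing complex GATOR2, had 12.5 and 21.4 CPM (ratio 1.71, 1.51 to 1.94). *Tmtc1*, an O-mannosyltransferase of the endoplasmic reticulum, had 7.71 and 24.7 CPM (ratio 3.20, 2.77 to 3.71).

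The remaining 13 members stood in no list, and they included the highest log2 ratio of each family. *Wdr64* (chr1:175698593-175815734) had 45.0 CPM in the input against 333 CPM with FMRP, a log2 ratio of 2.86 and rank 399. The ratio of *Wdr64* was 7.39 (6.99 to 7.82). *Ttc28* (chr5:110879803-111289780) had 4.41 and 37.3 CPM, a log2 ratio of 2.82 and rank 415. Without the pseudocount *Ttc28* led, with a ratio of 8.46 (7.09 to 10.2), an interval that overlapped those of *Wdr64* and *Wdr63*. *Ttc3*, a ubiquitin ligase with TPRs, had 16.2 and 81.7 CPM (ratio 5.05, 4.59 to 5.57). Among the TTC39 paralogues, *Ttc39d* had 67.4 and 325 CPM (ratio 4.81, 4.59 to 5.05). *Ttc39a* had a similar input level of 75.1 CPM but 151 CPM in the FMRP RIP (ratio 2.01, 1.91 to 2.11), and *Ttc39b* had 14.4 and 27.2 CPM (ratio 1.89, 1.69 to 2.12). *Ttc39a* and *Ttc39b* had overlapping intervals, and *Ttc39d* lay 2.40 times above *Ttc39a* in ratio. *Wdr1*, the actin-disassembly cofactor AIP1, had 60.2 and 114 CPM (ratio 1.89, 1.79 to 1.99), and *Wdr47*, a microtubule-associated protein, 10.5 and 21.4 CPM (ratio 2.04, 1.79 to 2.32). The other 5 (*Ttc41*, *Ttc17*, *Ttc1*, *Ttc34* and *Wdr17*) had ratios between 2.28 and 3.26. *Ttc41* had 30.6 and 96.7 CPM and *Ttc34* 14.3 and 36.2 CPM. *Ttc1* had 5.45 and 17.1 CPM, *Ttc17* 4.15 and 13.5 CPM, and *Wdr17* 6.32 and 14.4 CPM. None of these 5 genes reached 100 CPM with FMRP, against 18 of all members.

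Counting error was small against the range of the members, but the intervals of neighbouring members overlapped. The 95% interval lay wholly above 2-fold for 29 of the 45 members, 11 WD repeat and 18 TPR genes. It lay wholly below 2-fold for 6 and included 2-fold for the other 10. The same count over all listed genes was not made, so these numbers are no result about the families. By ratio alone, 35 of the 45 members were above 2-fold, against 81.2% of the 4775 listed genes above 0 in the input. Ordered by ratio, all 44 pairs of neighbouring members had overlapping intervals, so the intervals do not settle the order of neighbours. Overlap alone does not show that a step was within counting error. Some genes moved across a log2 ratio of 1 with the pseudocount alone: *Wdr43*, *Wdr44*, *Wdr47*, *Wdr33* and *Ttc39a* were at or below 1 with 1 CPM added and above 1 without it. A fractional read number in at least 1 library was found for 10 members, 7 WD repeat genes (*Wdfy2*, *Wdr11*, *Wdr17*, *Wdr20rt*, *Wdr33*, *Wdr47* and *Wdr59*) and 3 TPR genes (*Ttc3*, *Ttc25* and *Ttc39b*). The positions of 11 members overlapped another protein-coding gene, among them *Wdfy4* with *Lrrc18*, *Wdr78* with *Mier1* and *Ttc23* with *Synm*, all 3 of which were themselves listed. *Wdr63*, *Ttc3*, *Ttc39d*, *Ttc16*, *Wdr48*, *Wdr26*, *Ttc7b* and *Wdr17* overlapped genes outside the list. Whether reads were counted by strand is not given in the sources used here, so reads of such neighbours cannot be told apart.

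**Figure D3:**
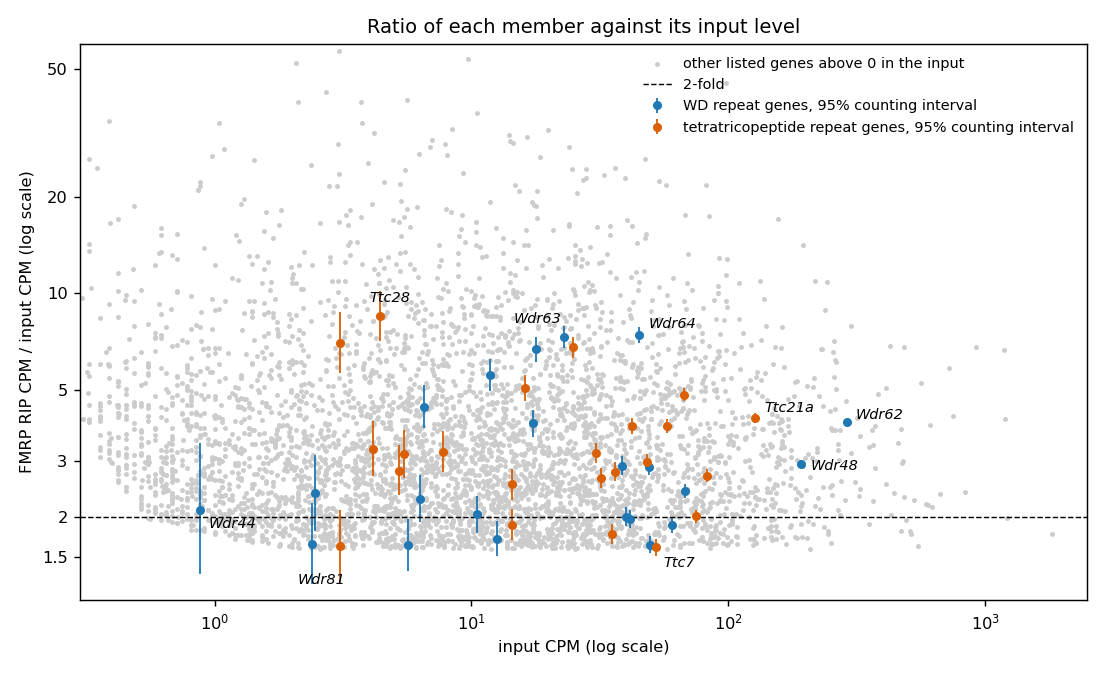
Ratio of FMRP RIP CPM to input CPM against input CPM, both on log axes, for WD repeat (blue) and TPR genes (orange) with 95% counting intervals, over the other listed genes in grey (101 genes above 0 in the input lie outside the axes). Intervals narrow from *Wdr44* (1.32 to 3.41) to *Wdr62* (3.86 to 4.04), and the 4 highest ratios belong to *Ttc28*, *Wdr64*, *Wdr63* and *Ttc37*, at 4.41, 45.0, 23.0 and 3.08 CPM in the input.

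The table of listed genes was then set against the annotation, as shares without a test. In the RefSeq annotation of GRCm38.p6, 116 protein-coding genes carry a symbol of these patterns, and 45 were listed (38.8%), against 21.3% of all protein-coding genes, expressed in testis or not. A raised share was not particular to these families, since 51 of 125 annotated leucine-rich, ankyrin and armadillo repeat symbols (40.8%) and 61 of 137 coiled-coil symbols (44.5%) were listed. The share was 23 of 46 for TPR genes (50%) and 22 of 70 for WD repeat genes (31.4%). The pattern also takes in *Wdr83os*, named only for lying opposite *Wdr83*, which was not listed. Genes outside the list may be unchanged, lower, too low to be tested or not analysed here. Listed members had a longer span from start to end of the gene: the median was 67.6 kb for listed and 24.2 kb for other members, and 48.7 kb and 12.5 kb over all protein-coding genes. Among members of up to 20 kb, 6 of 35 were listed (17.1%), against 8.26% of all protein-coding genes of that span. From 20 to 50 kb the share of members was near that of all genes, with 10 of 34 (29.4%) against 27.6%. From 50 to 100 kb it was 16 of 24 (66.7%) against 43.3%, and over 100 kb 13 of 23 (56.5%) against 49.2%. The TPR share was above the WD repeat share in each of the 4 span classes, with few genes in each. Within the listed members the span and the log2 ratio were weakly related or unrelated across genes (Spearman's rho 0.24 over 22 WD repeat genes and -0.02 over 23 TPR genes; genes of the same libraries are not replicates).

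**Figure D4:**
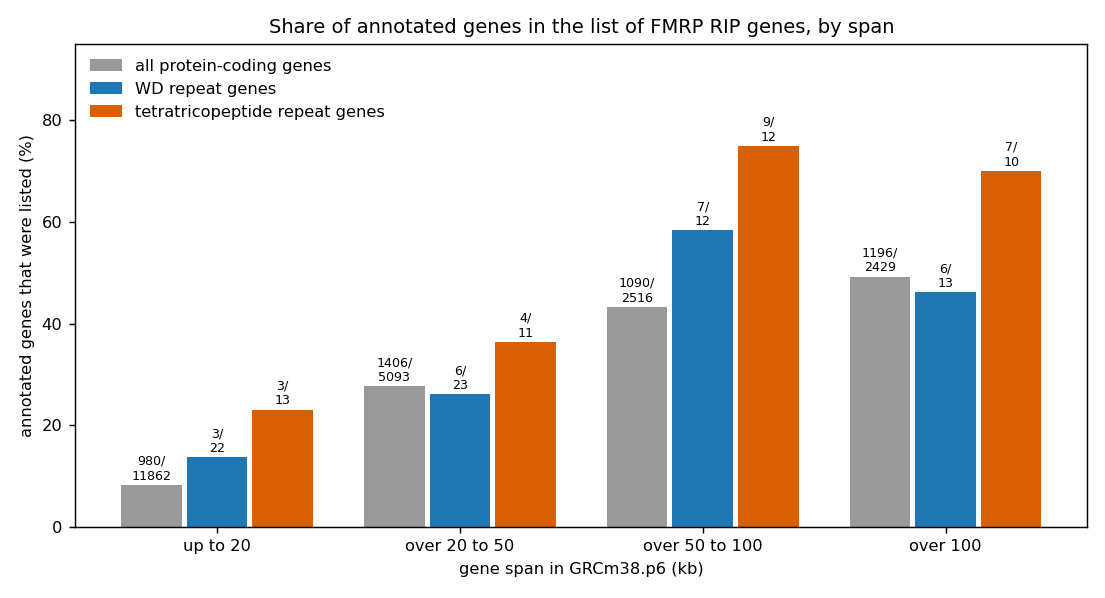
Share of annotated protein-coding genes that were listed, by span of the gene, for all genes (grey), WD repeat genes (blue) and TPR genes (orange); numbers above the bars are listed over annotated genes. The TPR bar is above the WD repeat bar in each class, from 3 of 13 against 3 of 22 genes at up to 20 kb to 7 of 10 against 6 of 13 genes at over 100 kb.

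By role, of the 26 annotated members in the cilium and flagellum lists, 17 were listed (65.4%), against 21.3% of all protein-coding genes, with no test of the difference. Of the 40 in the lists of other complexes 15 were listed (37.5%), and of the 50 in no list 13 (26.0%). The median span of these groups was 47.7, 31.0 and 36.2 kb. Of the partner genes outside both families, 18 of 40 were listed in the cilium lists (45%) and 45 of 105 in all lists (42.9%). The second count includes the first, so these shares do not compare separate groups as those of the members do. The role lists of members and partners were written with earlier results of these data known. Which genes the role lists hold may thus depend on which genes were listed and on their values. The shares and medians by role are therefore no independent result. Of 9 WD repeat genes of ribosome assembly, *Wdr43* alone was listed (11.1%), a count too small to set apart from the 21.3% of all protein-coding genes. The others were *Wdr3*, *Wdr36*, *Wdr46* and *Wdr75* of the small-subunit processome and *Wdr12*, *Wdr18*, *Wdr55* and *Wdr74* of 60S assembly. The WD repeat partners of tRNA methyltransferases, *Wdr4* and *Wdr6*, were not listed either.

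Partner genes of the same complexes were read from the same lists, and 38 of the 45 listed ones had a log2 ratio above 1, where the share over all listed genes was 70.1%. Their median log2 ratio was 1.62, against 1.35 over all listed genes. The share of partners listed, 42.9%, stood beside 21.3% of all protein-coding genes. In several complexes the repeat subunits and their partners were listed unequally, with few genes in each and no test. None of the 4 TPR genes of IFT-B (*Ttc26*, *Ttc30a1*, *Ttc30a2* and *Ttc30b*) was listed, against 6 of 14 partners, with log2 ratios from 0.69 for *Ift57* to 2.04 for *Ift74*. These 4 genes are too few to set apart from the 21.3% of all protein-coding genes. *Ttc30a1*, *Ttc30a2* and *Ttc30b* also span only 2.0 to 2.9 kb, and 8.26% of all protein-coding genes of up to 20 kb were listed. The short propeller subunits of histone H3 lysine methyltransferases, *Wdr5* and *Wdr82*, were not listed, whereas 6 of 10 partners were, namely the catalytic subunits *Setd1a* (1.32), *Setd1b* (2.84), *Kmt2a* (2.40), *Kmt2b* (2.05), *Kmt2c* (2.62) and *Kmt2d* (3.24). The other partners, *Ash2l*, *Rbbp5*, *Dpy30* and *Cxxc1*, were not listed either, so the unlisted subunits were not the repeat genes alone. In the dynein arm list, 5 of 6 members and 2 of 6 partners were listed. In the GID/CTLH ligase, *Wdr26* (1.5) lay among 4 listed partners from 1.25 (*Gid4*) to 2.09 (*Ranbp9*). No gene of the PRMT5 methylosome, which includes *Wdr77*, was listed.

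**Figure D5:**
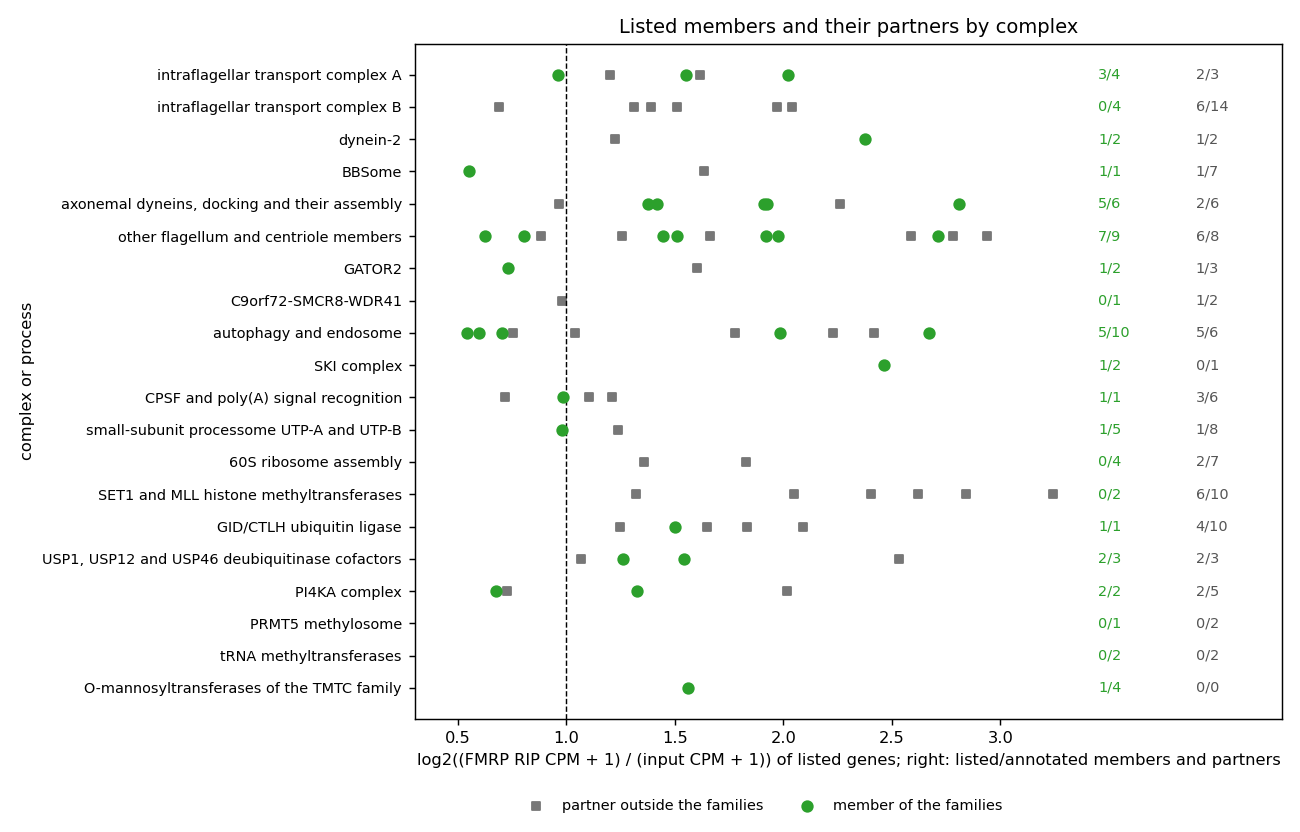
Log2 ratio of listed members (green circles) and of their listed partners outside both families (grey squares) by complex or process, with the numbers of listed over annotated members and partners at the right and a dashed line at a log2 ratio of 1. IFT-B and the SET1 and MLL methyltransferases show grey squares only, whereas the dynein arm list holds 5 of 6 members.

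Listed genes of other symbol families were read in the same way, without a test. Symbols of leucine-rich (*Lrrc*), ankyrin (*Ankrd*) and armadillo (*Armc*) repeat genes had 52 listed genes with a median log2 ratio of 1.31, 40 of them above 1 (76.9%). Coiled-coil domain genes (*Ccdc*) had 62 listed genes with a median of 1.82, 53 of them above 1 (85.5%). The median of both families together was 1.49. A further 12 listed genes are described as WD repeat or TPR proteins but lie outside the symbol patterns, with a median of 1.12. The highest of these was *Tanc2*, a postsynaptic scaffold with TPRs and ankyrin repeats, with 6.2 and 61.7 CPM and a ratio of 9.96 (8.60 to 11.6), an interval that overlapped that of *Ttc28*. *Wdtc1*, which carries both repeats, had 136 and 422 CPM (ratio 3.11, 3.0 to 3.21).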

How the data were processed

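The authors sequenced 1 input and 1 FMRP RIP library of adult wild-type testis as paired-end reads. Per the labels, reads were aligned with STAR to GRCm38 (mm10), and the counting tool is not given in the sources used here. The authors deposited CPM values of both libraries for genes they had marked as higher. Their log2 fold change, linear fold change, p-value and adjusted p-value columns, deposited by the authors from edgeR, were not used. Library totals were recovered from the step of the CPM values, and 78.4% (input) and 78.8% (FMRP RIP) of values came out as whole reads within 0.01 read, so no count test was run.

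The log2 ratio used a pseudocount of 1 CPM. Ratios are of CPM values without it, with exact Clopper-Pearson 95% intervals from rounded reads. No molecular identifiers are described, and PCR copies are not separate molecules, so the intervals and the floor of 3 reads hold counting error and nothing else. Groups came from the labels. Members were chosen by symbol, and role lists were written from general knowledge, with earlier results of these data known. The rule for named genes took the 6 highest and 4 lowest log2 ratios of each family with at least 100 reads over both libraries, the 3 highest input levels, all cilium members and members under 30 input reads; the remaining members were added so that all are accounted for. Symbols were matched to RefSeq (GRCm38.p6), which named 4717 of the 4788 genes and all 45 members. Alternatives were other pseudocounts, filters, scaling and narrower symbol sets. The functions were tested on simulated data. Scripts ran under Python 3.11.15 with scipy 1.17.1, pandas 2.3.3, numpy 2.4.6 and, for plots, matplotlib 3.10.9.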

Additional observations from a re-analysis of the deposited data

How the results depend on the processing

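The lower median of the WD repeat genes was not stable. With only the 35 members that had whole reads in both libraries, the difference of the family medians (WD repeat minus TPR) was 0.0064 instead of -0.33, and with at least 10 CPM in the input it was 0.0066; both settings were chosen after seeing the data, keep fewer genes, and the cause was not tested. Under the other settings the difference stayed between -0.24 and -0.42. The TPR median was 1.63 with a pseudocount below 1 CPM and 1.65 with none. Scaling the FMRP RIP to the reads outside the listed genes multiplied its values by 1.92, which put the WD repeat median at 2.08 and the TPR median at 2.39. All 22 WD repeat and 23 TPR genes were then above 1, as were 4786 of all 4788 listed genes, whose median was 2.24. The ratios are therefore relative to the library totals. Counts above 1 stayed within 1.5 times under every other setting. A member was counted as moved if its log2 ratio shifted by more than its counting interval extends to either side of the centre. Of the 45 single members, 20 moved with 5 CPM, 1 with no pseudocount and 44 with the other scaling. No direction could change, since it was fixed by the selection. No paired analysis was possible because input and FMRP RIP are single libraries, and none could be left out. Depth limits *Wdr44* most, with 27 input reads.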
